A study of Arabidopsis thaliana with 8 samples.

Results

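Small DnaJ-domain chaperone genes were followed in above-ground tissue of Arabidopsis thaliana by their signals on Affymetrix ATH1 arrays. The genes were chosen by locus from a list of 6: AT1G71000, AT1G56300, AT3G14200, J11 (AT4G36040), AT2G17880 and AT5G23240. The list is led by AT1G71000, which was picked for its difference between cold and warm plants on these arrays. The platform annotation paired 3 of the 6 with a probe set of their own, AT1G71000 (262307_at), AT1G56300 (256221_at) and AT3G14200 (256999_at), out of 22810 probe sets on the array. J11, AT2G17880 and AT5G23240 were not analysed here.

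DnaJ-domain proteins, also called J-domain proteins or Hsp40s, are partners of the Hsp70 chaperones. Their J domain touches Hsp70 and speeds its hydrolysis of ATP, which makes Hsp70 close on an unfolded or newly made protein, and nucleotide exchange factors then let Hsp70 open again. Small members of the family carry a J domain with little other sequence, and several Arabidopsis members work in the chloroplast. Low temperature slows protein folding, and plants that acclimate to cold adjust many chaperone transcripts.

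The study measured 8 arrays, 2 for each of 4 groups: sfr3 plants in the cold, wild-type plants in the cold, sfr3 plants kept warm and wild-type plants kept warm. The wild type was Col-0, and sfr3 is a mutant from ethyl methanesulfonate mutagenesis in that background, known for damage by freezing after cold acclimation. The seed of all groups, warm ones too, was kept at 4 °C for 48 h. All plants were grown on compost for 38 days at 20 °C with 8 h of light a day and had reached growth stage 1.14. The labels used here do not state how cold the exposure was, how long it lasted or at what hour plants were taken. They name the whole rosette for wild type and the aerial parts for sfr3, so genotype and collection cannot be told apart. Whether replicates were separate plants is not stated in the labels, and p-values below reflect the spread of these arrays alone, which may be technical.

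One array stood apart. Relative to the remaining arrays, the 18 hybridisation controls of cold sfr3 replicate 1 had a median ratio of 5.75, and those of each other array 0.542 to 1.18. Background, taken as the 95th percentile over 27 dark bacterial controls, was 35.4 on that array and between 6.37 and 11.3 on the others, and the actin 3'/5' signal ratio was 2.42 there and 6.49 to 12.9 elsewhere. Values without this array are given beside the results that it moved most. Of 12 leaf markers 4 were paired, and all 4 were above background on all arrays, with a summed signal of 18890 to 21430 in cold sfr3, 16730 to 17370 in cold wild type, 19990 to 21390 in warm sfr3 and 19020 to 24890 in warm wild type. The 5 paired root markers of 9 summed to 94.7 to 280 in cold sfr3, 83.5 to 84.8 in cold wild type, 219.6 to 231.6 in warm sfr3 and 172.6 to 244.8 in warm wild type, and AT5G66390 among them was below background on all 8 arrays. In the warm groups these sums were mostly PYK10, a root beta-glucosidase gene. PYK10 had 112 and 40.01 in cold sfr3, against 202 and 199 in warm sfr3. In wild type it had 28.8 and 31.7 in the cold, against 196 and 132 in the warm. EXPA7, a root hair expansin gene, lay the other way, with 93.2 and 25.1 in cold sfr3, against 6.32 and 5.43 in warm sfr3, and 25.2 and 25.6 in cold wild type, against 12.5 and 18.9 in warm wild type. The root marker GH9C1 had 61.7 and 8.17 in cold sfr3, against 1.21 and 7.42 in warm sfr3. In wild type GH9C1 had 11.8 and 10.2 in the cold, against 10.2 and 12.3 in the warm. PYK10, EXPA7 and GH9C1 were higher on cold sfr3 replicate 1 than on replicate 2. The root marker EXPA18 was lower there, with 8.93 on replicate 1 and 17.7 on replicate 2. The part of the tissue markers in the cold results below was not tested. None of 9 flower and 8 seed markers was paired.

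The leading gene, AT1G71000, was measurable in the cold and not in the warm, in both genotypes. In sfr3 its signal was 68.6 and 75.6 on the cold arrays, against 0.499 and 1.097 on the warm arrays. In wild type it was 86.1 and 67.6 on the cold arrays, against 0.576 and 2.23 on the warm arrays. All 4 cold arrays were above all 4 warm arrays, and every warm value was under the background level of its array, so the warm level has only an upper bound. Set against that background, AT1G71000 was at least 8.32-fold higher in cold than in warm sfr3, and at least 8.99-fold higher in cold than in warm wild type. With single cold arrays the bound was 7.93 and 8.73 in sfr3 and 10.2 and 7.97 in wild type, so cold sfr3 replicate 1, the array that stood apart, gave a value close to that of its replicate. In whole tissue, more cells with the transcript and more transcript per cell cannot be told apart.

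**Figure D1:**
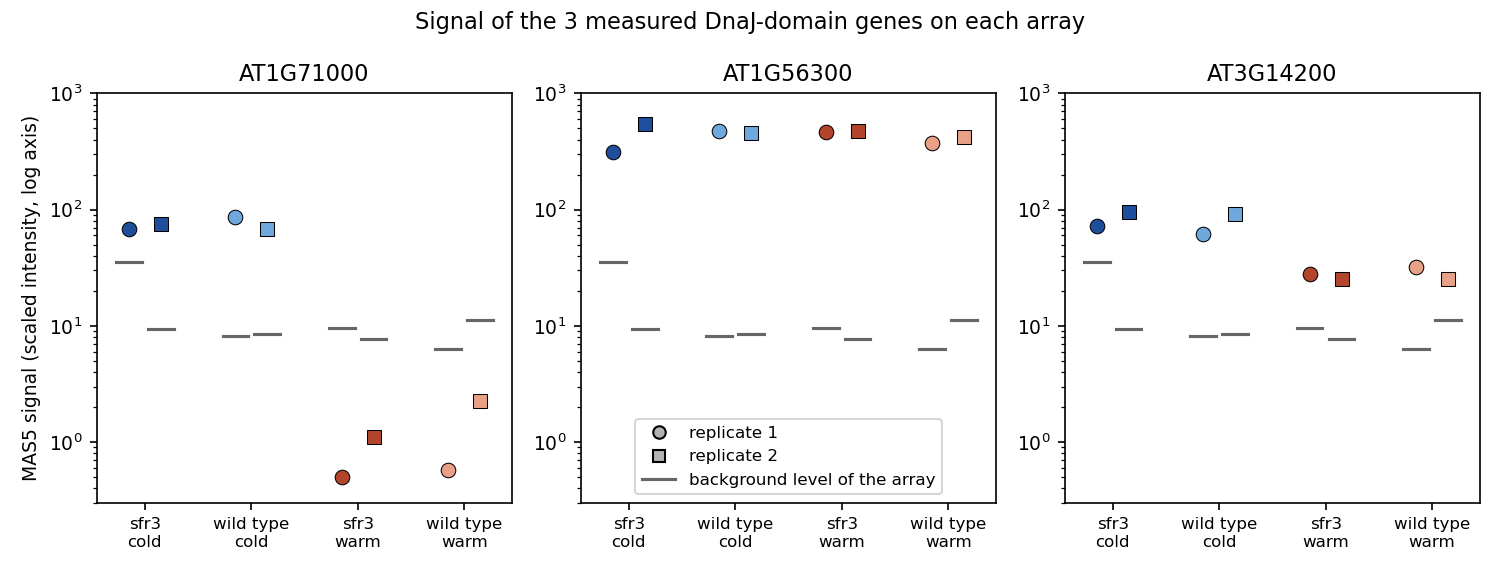
Signal of AT1G71000, AT1G56300 and AT3G14200 (MAS5 scaled intensity, log axis) on each of the 8 arrays, by group, with circles for replicate 1, squares for replicate 2 and short grey lines for the background level of each array. AT1G71000 lies between 67.6 and 86.1 in the cold and below background in the warm, AT3G14200 is higher on all cold arrays, and AT1G56300 lies between 314 and 543 throughout.

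AT3G14200 was higher in the cold as well, from a warm level that was above background. Its signal was 71.9 and 95.1 in cold sfr3, against 27.8 and 25.2 in warm sfr3. Wild-type plants had 61.6 and 92.1 in the cold, against 32.0 and 25.4 in the warm. The cold and warm arrays did not overlap in either genotype. The group means were 83.5 ± 16.4 in cold sfr3 and 26.5 ± 1.81 in warm sfr3, and 76.9 ± 21.5 in cold wild type and 28.7 ± 4.69 in warm wild type (SD, n = 2 each).

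AT1G56300 differed little with temperature. It had 314 and 543 in cold sfr3, against 463 and 473 in warm sfr3, so the 2 cold arrays lay on either side of the warm ones. In wild type it had 471 and 454 in the cold, against 378 and 420 in the warm, and these groups did not overlap. The low value came from cold sfr3 replicate 1.

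Differences were taken on the scale log2(signal + 2.17), where the added 2.17 is the 10th percentile of all values, and this scale understates the change of dim genes. All 3 genes were among the 13648 probe sets in the 60% with the highest mean signal, which were the ones tested. AT1G71000 passed that filter only through its cold arrays. Because the list was drawn up with the cold results known, the cold against warm values of the 3 genes are a description and carry no test. For AT1G71000 the fitted difference was 4.65 ± 0.81 in sfr3 and 4.50 ± 0.81 in wild type (SE), the 4th highest in sfr3 and the 8th highest in wild type of the 13648, but with a pseudocount of 16 it was 2.39 in sfr3 and 2.41 in wild type, at ranks 63 and 70. With 1 array left out the ranks ran from 4 to 12 in sfr3 and from 6 to 13 in wild type. These fitted values depend on the pseudocount and are no bound. For AT3G14200 the difference was 1.57 ± 0.34 in sfr3 and 1.34 ± 0.34 in wild type. For AT1G56300 it was -0.18 ± 0.24 in sfr3 and 0.21 ± 0.24 in wild type.

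In wild type 3 of the 3 genes had both cold arrays above both warm arrays, where 36.8% of all tested probe sets did. In sfr3 2 of the 3 did, against 33.3% of all tested probe sets, and 3 of the 3 without cold sfr3 replicate 1. The list was chosen with this contrast known, and nothing is read from these counts.

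The array that stood apart mattered for 1 of the 3 genes. Without cold sfr3 replicate 1 the cold difference in sfr3 was 4.72 for AT1G71000 and 1.77 for AT3G14200, both near the values with it. For AT1G56300 it was 0.21 without that array, the opposite sign of -0.18 with it and the same as the 0.21 of wild type. On the log2 scale the replicates of cold sfr3 differed by 0.79 for AT1G56300, 0.39 for AT3G14200 and 0.14 for AT1G71000. In the other groups the replicates of AT1G56300 differed by 0.03 to 0.15.

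**Figure D2:**
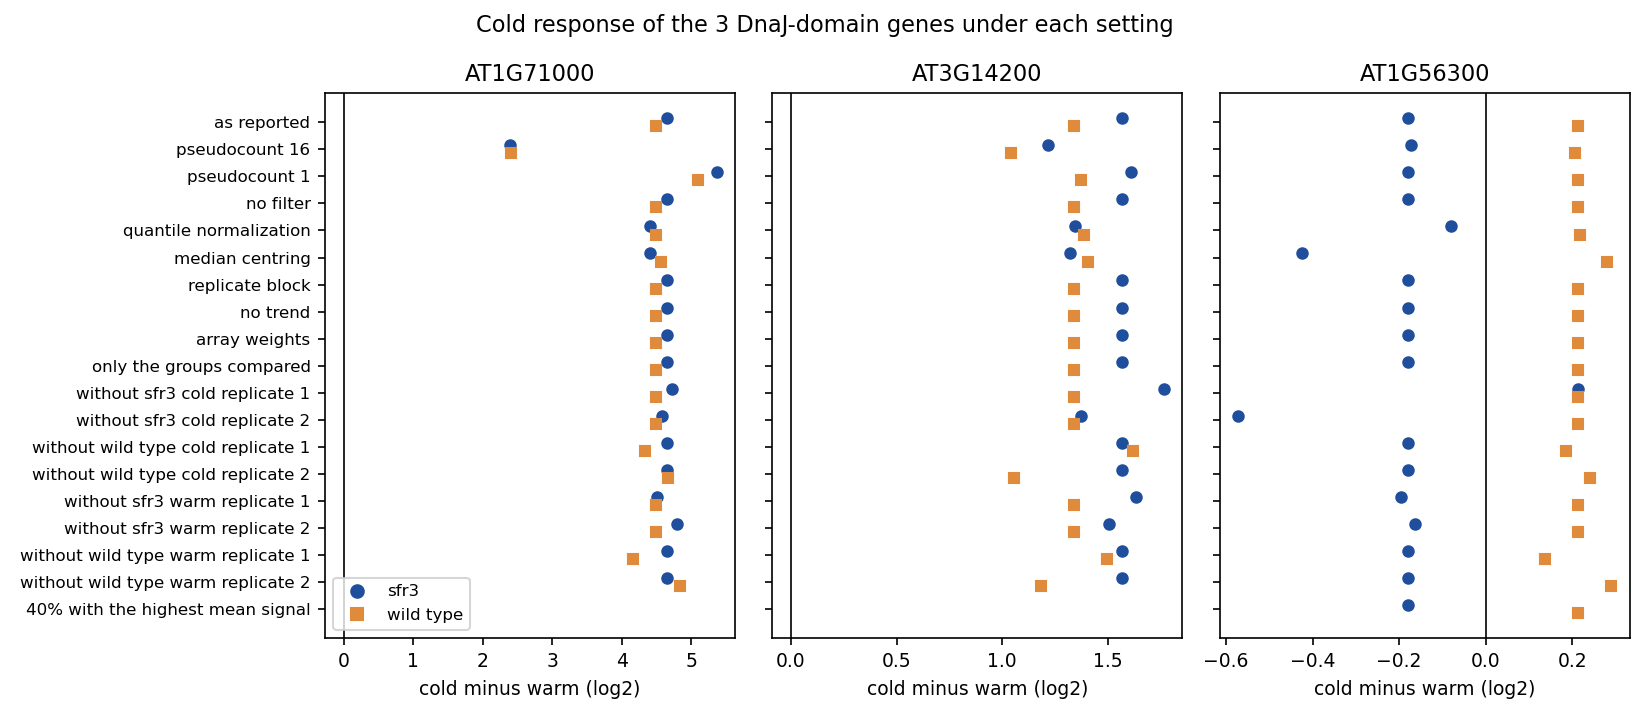
Cold minus warm difference on the log2 scale for AT1G71000, AT3G14200 and AT1G56300 under the reported setting and 18 alternatives, with circles for sfr3 and squares for wild type. AT1G71000 stays above 2.3 and AT3G14200 above 1.0 in both genotypes, while AT1G56300 in sfr3 lies between -0.57 and 0.21.

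The comparison of sfr3 with wild type asks whether the mutant carried different levels of these transcripts at a given temperature, and the rule for the list did not use it. None of the 3 genes was called by limma at either temperature (adjusted p below 0.05). In the cold 0 of 3 were called, where 0.125% of all tested probe sets were. An unadjusted p below 0.05 was seen there in 0 of 3, and in 1775 of the 13648 tested probe sets. In the warm 0% of all tested probe sets were called. Neither AT3G14200 nor AT1G56300 had an unadjusted p below 0.05 there, where 102 of the 13648 did. AT1G71000, below background on every warm array, could not show a difference there.

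In the cold AT1G71000 averaged 72.1 ± 4.91 in sfr3 and 76.9 ± 13.1 in wild type (SD, n = 2 each), and the arrays overlapped. Its log2 difference was -0.08, with a 95% interval of -1.91 to 1.75 (limma, adjusted p = 0.970). AT3G14200 differed by 0.13, with an interval of -0.63 to 0.89 (limma, adjusted p = 0.864), and by -0.12 with median centring. AT1G56300 averaged 428.6 ± 162 in cold sfr3 and 462.5 ± 12.4 in cold wild type (SD, n = 2 each) and differed by -0.16, with an interval of -0.71 to 0.39 (limma, adjusted p = 0.758). The interval of AT1G71000 spans more than a 3-fold change either way, so this fit could not call a difference of that size. The cold replicates of AT1G71000 lay closer, with gaps of 0.14 in sfr3 and 0.34 in wild type on the log2 scale. Through the shared spread of the fit, the width also draws on its warm arrays, all below background, and on other probe sets.

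Without cold sfr3 replicate 1 the differences in the cold were -0.01 for AT1G71000, 0.33 for AT3G14200 and 0.23 for AT1G56300, none of them called (adjusted p = 0.996, 0.759 and 0.649, limma). Without cold sfr3 replicate 2 the difference of AT1G56300 was -0.55, a value that rests on replicate 1, the array that stood apart. Calls rose over all tested probe sets in that fit, so nothing is read from its calls.

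In the warm AT1G71000 was not above background in either genotype, and no fold is given. AT3G14200 had 27.8 and 25.2 in warm sfr3, against 32.0 and 25.4 in warm wild type, and differed by -0.10 with an interval of -0.86 to 0.66 (limma, adjusted p = 1). AT1G56300 was higher on both warm sfr3 arrays, at 463 and 473, than on both warm wild-type arrays, at 378 and 420. Its difference was 0.23 with an interval of -0.32 to 0.78 (limma, adjusted p = 1), and 14.2% of all tested probe sets had both warm sfr3 arrays above both warm wild-type arrays.

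Whether the cold response itself depended on the genotype was tested with the wild-type response subtracted from the sfr3 response. Of the 3 genes 0 were called by limma, where 0.0366% of all tested probe sets were. An unadjusted p below 0.05 was seen in 0 of the 3, and in 803 of the 13648 tested probe sets. The difference between the responses was 0.23 for AT3G14200 (95% interval -0.85 to 1.31, adjusted p = 0.892, limma) and -0.39 for AT1G56300 (-1.17 to 0.39, adjusted p = 0.755, limma). It was 0.15 for AT1G71000 (-2.43 to 2.74, adjusted p = 0.971, limma), whose warm arrays were all below background. It was 0.43 for AT3G14200 and 0.22 for AT1G71000 without cold sfr3 replicate 1, neither called. For AT1G56300 it was -0.001 without cold sfr3 replicate 1 and -0.79 without cold sfr3 replicate 2, where it rests on the array that stood apart.

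Over the 8 arrays the patterns of AT1G71000 and AT3G14200 were alike, with a Pearson correlation of 0.946 on the log2 scale. AT1G56300 was unlike both, with 0.057 against AT1G71000 and 0.088 against AT3G14200. These correlations, and those that follow, share the same 8 arrays and the same split into cold and warm, and are a description.

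Among the 7335 other tested probe sets paired with 1 gene, the 5 whose pattern was most like AT1G71000 were AT2G37220 (r = 0.998), AT1G67360 (r = 0.998), AT3G53560 (r = 0.997), AT5G52420 (r = 0.995) and SWEET13 (r = 0.994), a sucrose transporter gene. SWEET13 had 290.1 and 284.5 in cold sfr3 and 354.6 and 395.2 in cold wild type, against 30.1 and 31.2 in warm sfr3 and 29.6 and 49.3 in warm wild type. AT1G67360 had 967.6 and 922 in cold sfr3 and 1067 and 1064 in cold wild type, against 99.2 and 102 in warm sfr3 and 108 and 143 in warm wild type. In both genes, as in AT1G71000, the 2 temperatures formed 2 levels that did not overlap. Within the cold level both wild-type arrays were above both sfr3 arrays in SWEET13 and AT1G67360, whereas the genotypes overlapped in AT1G71000.

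The 3 genes most like AT3G14200 were AT2G44940 (r = 0.989), AT1G61730 (r = 0.988) and AT1G78210 (r = 0.988). In AT2G44940, as in AT3G14200, replicate 2 was above replicate 1 in both cold groups: 161 and 174 in cold sfr3 and 127 and 178 in cold wild type. In the warm groups replicate 1 was the higher one, at 52.3 and 39.3 in sfr3 and 54.7 and 36.3 in wild type. The 3 genes most like AT1G56300 were AT2G34050 (r = 0.977), AT2G32520 (r = 0.970) and AT4G24440 (r = 0.953), and each had its lowest value on cold sfr3 replicate 1. AT2G32520 had 250.2 and 359 in cold sfr3, against 309 and 333 in warm sfr3, and 326 and 331 in cold wild type, against 283 and 290 in warm wild type.

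**Figure D3:**
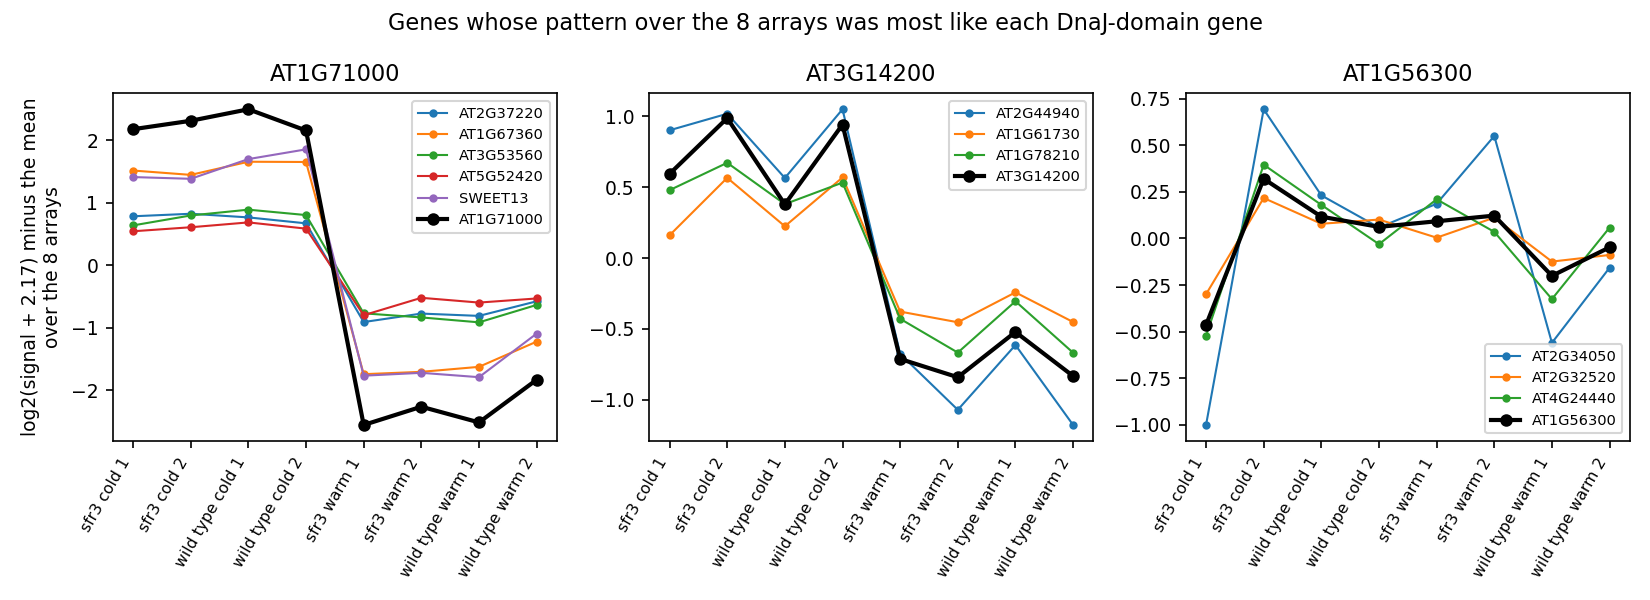
Each line is a gene's log2(signal + 2.17) minus its mean over the 8 arrays, for AT1G71000, AT3G14200 and AT1G56300 in black and the genes with the highest Pearson correlation to each in colour. The AT1G71000 panel shows 2 flat levels split by temperature, and the lowest point of every line in the AT1G56300 panel is cold sfr3 replicate 1.

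The rest of the J-domain family was described from a list of 44 other loci, assigned by general knowledge of the family because the gene table gives no descriptions. A probe set was paired with 19 of them, and 13 passed the signal filter and were tested. Of the 13, AT5G16650 and AT5G01390 fell in cold sfr3. In cold wild type ATERDJ3B, a J-domain partner of the Hsp70 BiP in the endoplasmic reticulum, rose and AT5G16650 fell. No other of the 13 was called in either genotype. This list and the chaperone and heat-shock lists below were drawn up with earlier results of these data known. Their cold against warm calls are therefore not independent tests.

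In wild type 1 of 13 rose and 1 of 13 fell, where 13.0% of all tested probe sets rose and 13.3% fell. In sfr3 0 of 13 rose and 2 of 13 fell, where 14.9% rose and 16.4% fell. At an unadjusted p below 0.05, 4 of 13 passed in wild type and 3 of 13 in sfr3. Of all 13648 tested probe sets 5088 passed in wild type and 5995 in sfr3. The median log2 difference of the 13 was 0.12 in sfr3 (0.20 without cold sfr3 replicate 1), against 0.06 over all tested probe sets, and 0.21 in wild type, against -0.004 over all.

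AT5G16650 had 48.1 and 84.4 in cold sfr3, against 297.5 and 335.5 in warm sfr3. In wild type it had 67.5 and 78.7 in the cold, against 258 and 219 in the warm. Every cold array was below every warm array. It fell by 2.27 on the log2 scale in sfr3 (SE 0.27, limma adjusted p = 4.29e-04) and, in wild type, fell by 1.68 (SE 0.27, limma adjusted p = 0.00204), and both calls held under all 18 alternatives.

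ATERDJ3B had 271.5 and 303 in cold wild type, against 122 and 114 in warm wild type, a log2 difference of 1.27 (SE 0.33, limma adjusted p = 0.0191). In sfr3 it had 138.5 and 308 in the cold, against 126 and 107 in the warm, a difference of 0.82 (limma adjusted p = 0.0841). Without cold sfr3 replicate 1 the sfr3 difference was 1.39 and was called (limma adjusted p = 1.57e-04). The wild-type call of ATERDJ3B was lost without cold wild-type replicate 1 or 2 (limma adjusted p = 0.0837 and 0.130) and without warm wild-type replicate 1 or 2 (0.0962 and 0.110). AT5G01390 had 100.0 and 99.7 in cold sfr3, against 162 and 164.5 in warm sfr3, and fell by 0.69 on the log2 scale (limma adjusted p = 0.0243). In wild type it had 126.5 and 145 in the cold, against 176 and 156 in the warm, a difference of -0.29 (limma adjusted p = 0.322). The sfr3 call of AT5G01390 was lost without warm sfr3 replicate 1 or 2 (limma adjusted p = 0.104 and 0.107) or cold wild-type replicate 1 or 2 (0.0534 and 0.0541).

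The counts of called other J-domain genes moved with single arrays, up and down, and so did the counts over all tested probe sets. Nothing about the family is read from such shifts. The median cold difference of the 13 in sfr3 was 0.12 with all arrays, 0.20 without cold sfr3 replicate 1 and -0.49 without replicate 2. In wild type it was 0.215 with all arrays and ran from 0.15 to 0.32 with 1 wild-type array left out. The cold sfr3 arrays add only to the common spread of the wild-type comparison. The replicates of cold sfr3 differed by over 1 on the log2 scale for 5 of the 13 genes, with a median of 0.78, while in cold wild type, warm sfr3 and warm wild type none did and the medians were 0.20, 0.17 and 0.15. ATERDJ2B, named after its values were seen, which encodes a J-domain protein of the endoplasmic reticulum membrane, gave the widest gap, with 6.83 and 81.7 in cold sfr3, and its cold difference in sfr3 was -0.80 with both arrays and 0.81 without replicate 1, neither called.

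No other J-domain gene was called between sfr3 and wild type at either temperature, or for the genotype dependence of the cold response. At an unadjusted p below 0.05 the counts were 0 of 13 in the cold, in the warm and for the genotype dependence. Of all 13648 tested probe sets 1775, 102 and 803 passed, in that order. Leaving out cold sfr3 replicate 2 keeps the array that stood apart as the lone cold sfr3 array. Calls then rose over all tested probe sets, so nothing is read from calls in that fit. The median difference of the 13 in the cold was -0.185 with all arrays, -0.43 without replicate 2 and 0.08 without replicate 1. For the genotype dependence the medians were -0.41, -0.405 and -0.04. The 6 family members that were paired but not tested, ATJ1 of the mitochondrion among them, had mean signals of 13.7 to 19.2 over the 8 arrays. ATJ1, also named after its values were seen, had 12.5 and 11.6 in cold sfr3 and 20.9 and 25.5 in cold wild type. In the warm it had 15.1 and 14.7 in sfr3 and 22.7 and 30.6 in wild type. All sfr3 arrays lay below all wild-type arrays, but how many probe sets share that order was not counted. Nothing is read from it. ATJ1 was dim on every array and was not above background on cold sfr3 replicate 1, where its level has only an upper bound.

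**Figure D4:**
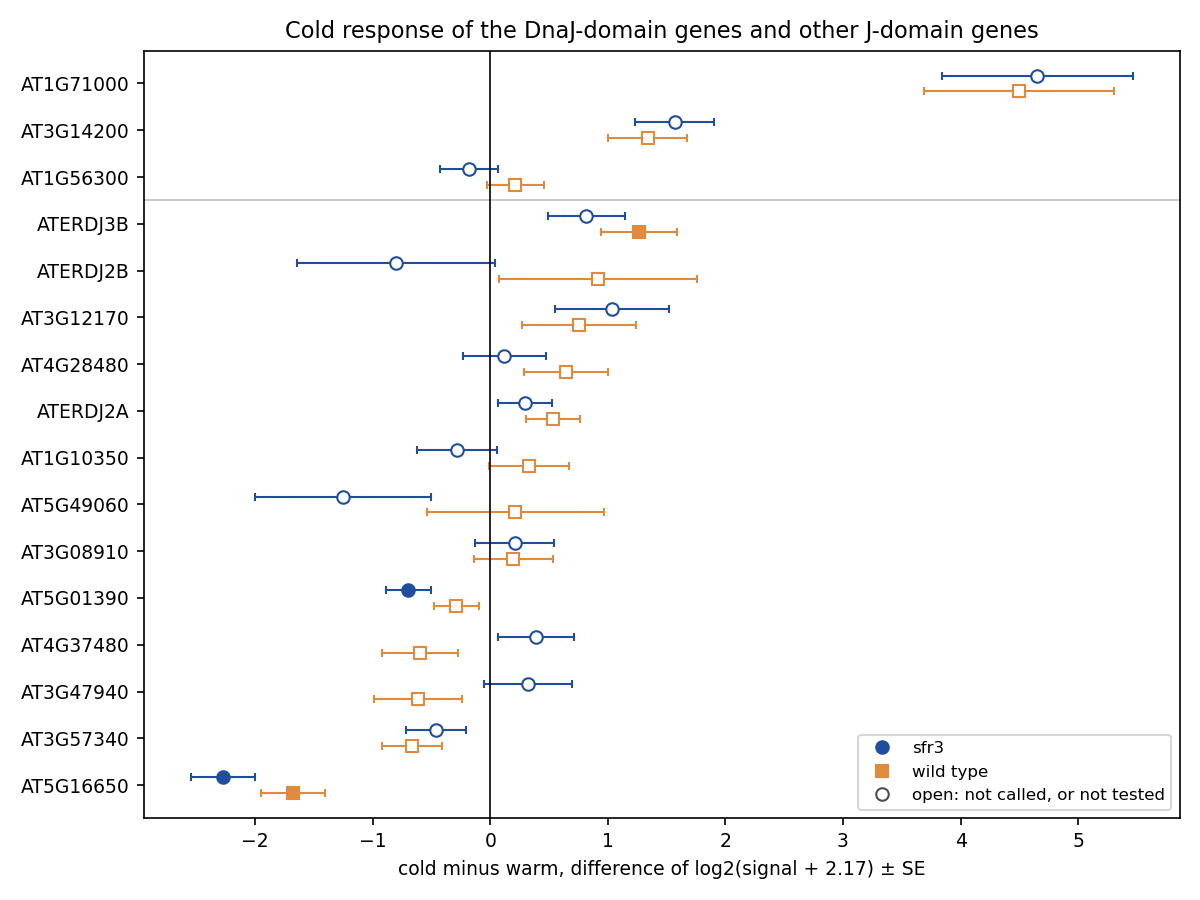
Cold minus warm difference of log2(signal + 2.17) with its SE for AT1G71000, AT3G14200 and AT1G56300 (top) and the 13 other tested J-domain genes, with circles for sfr3 and squares for wild type, filled where limma called the gene. The 3 genes at the top were not tested in this contrast, AT5G16650 lies at -2.27 in sfr3 and -1.68 in wild type, and most of the others lie within 1 of 0.

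The Hsp70 chaperones are the partners on which J-domain proteins act. Of 18 listed genes 4 were paired, and all 4 were tested. In wild type 2 of 4 rose in the cold, AT4G16660 and AT3G09440, and none fell, where 13.0% of all tested probe sets rose and 13.3% fell. In sfr3 0 of 4 were called by limma, where 14.9% of all tested probe sets rose and 16.4% fell. An unadjusted p below 0.05 in sfr3 was seen in 2 of 4, and in 5995 of all 13648 tested probe sets. The median of the 4 was 0.69 in sfr3 (1.00 without cold sfr3 replicate 1) and 0.87 in wild type, against 0.06 and -0.004 over all tested probe sets.

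AT3G09440 had 421 and 946.7 in cold sfr3, against 297 and 369 in warm sfr3, a difference of 0.93 (limma adjusted p = 0.0794). In wild type it had 779 and 788 in the cold, against 344 and 209 in the warm, a rise of 1.54 (SE 0.36, limma adjusted p = 0.0131). AT4G16660 had 60.1 and 88.1 in cold sfr3, against 41.8 and 39.2 in warm sfr3, a difference of 0.81 (limma adjusted p = 0.106). Wild-type plants had 113 and 99.7 in the cold, against 45.5 and 24.2 in the warm, a rise of 1.61 (SE 0.35, limma adjusted p = 0.00906). Both genes had all cold arrays above all warm arrays in each genotype. Without cold sfr3 replicate 1 both were called in sfr3, with 1.51 for AT3G09440 and 1.08 for AT4G16660 (limma adjusted p = 5.37e-04 and 0.0229). The wild-type calls were lost without cold wild-type replicate 1 (limma adjusted p = 0.0747 for AT3G09440 and 0.0835 for AT4G16660), cold wild-type replicate 2 (0.0848 and 0.0643) or warm wild-type replicate 2 (0.117 and 0.0748).

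Nucleotide exchange factors and other cochaperones open Hsp70 or link it to further chaperones. Of 19 listed genes 7 were paired and 6 tested. In each genotype 1 of 6 rose in the cold, AT1G36390, and 2 of 6 fell, Fes1B and Fes1C, which belong to a family of Hsp70 nucleotide exchange factors. Of all tested probe sets 14.9% rose and 16.4% fell in sfr3, and 13.0% rose and 13.3% fell in wild type. In each genotype the count of 3 rose with either cold sfr3 array left out and fell with certain other single arrays left out. Counts over all tested probe sets moved with single arrays too. Fes1B had 119 and 100.1 in cold sfr3, against 296 and 271 in warm sfr3, and 98.6 and 85.2 in cold wild type, against 264 and 242 in warm wild type. It fell by 1.36 in sfr3 (limma adjusted p = 0.00111) and, in wild type, fell by 1.44 (limma adjusted p = 8.21e-04). Fes1C had 60.5 and 85.4 in cold sfr3, against 214.5 and 224 in warm sfr3, and 74.6 and 67.0 in cold wild type, against 188 and 215 in warm wild type. It fell by 1.58 in sfr3 (limma adjusted p = 0.00113) and, in wild type, fell by 1.48 (limma adjusted p = 0.00156). The calls of Fes1B and Fes1C held under all 18 alternatives in both genotypes.

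Fes1A, of the same family as Fes1B and Fes1C, had cold values above its warm values: 202 and 72.7 in cold sfr3, against 46.4 and 59.4 in warm sfr3, and 91.7 and 91.6 in cold wild type, against 64.8 and 38.9 in warm wild type. It was not called (1.18 in sfr3, adjusted p = 0.0722, and 0.84 in wild type, adjusted p = 0.208, limma). The sfr3 value of Fes1A was 0.45 without cold sfr3 replicate 1 (limma adjusted p = 0.275) and 1.90 without cold sfr3 replicate 2, where it was called (limma adjusted p = 2.13e-04). AT1G36390 rose by 0.82 in sfr3 (limma adjusted p = 0.0487) and by 1.02 in wild type (limma adjusted p = 0.0229). Its sfr3 call was lost without any 1 array other than cold sfr3 replicate 1 (limma adjusted p up to 0.246). Leaving out any 1 wild-type array ended its wild-type call (up to 0.169).

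Of 15 listed plastid chaperone genes 4 were paired, and 4 of the 4 rose in both genotypes: the chloroplast chaperonin genes Cpn60beta2 and Cpn60beta3, AT3G60210 and again AT1G36390, which is on both lists. Of all tested probe sets 14.9% rose in sfr3 and 13.0% in wild type. The count of 4 did not hold throughout, since Cpn60beta3 and AT1G36390 lost their calls in both genotypes when certain single arrays were left out. AT1G36390 kept its call under 5 of the 18 alternatives in sfr3 and 13 of the 18 in wild type. Cpn60beta2 had 273 and 353 in cold sfr3, against 109 and 126 in warm sfr3, and 351 and 481 in cold wild type, against 100.2 and 123 in warm wild type. It rose by 1.39 in sfr3 (limma adjusted p = 0.00239) and by 1.87 in wild type (limma adjusted p = 5.34e-04), and both calls held under all 18 alternatives. Cpn60beta3 rose by 1.36 in sfr3 (limma adjusted p = 0.0331) and by 2.12 in wild type (limma adjusted p = 0.00502), and AT3G60210 by 0.88 in sfr3 (limma adjusted p = 0.00510) and 0.94 in wild type (limma adjusted p = 0.00369). In wild type Cpn60beta3 had 64.3 and 65.5 in the cold, against 17.7 and 9.84 in the warm. The 9.84 was under that array's background of 11.3, so the size of the wild-type difference rests on a value with only an upper bound. The sfr3 call of Cpn60beta3 was lost without warm sfr3 replicate 1 or 2 (limma adjusted p = 0.158 and 0.0974) or cold wild-type replicate 1 or 2 (0.0829 and 0.0838). Its wild-type call was lost without cold wild-type replicate 1 or 2 (0.0565 and 0.0655). The sfr3 call of Cpn60beta3 was also lost without the signal filter, with quantile normalization, median centring or array weights, and with only the compared groups fitted. The sfr3 call of AT3G60210 was lost with median centring (limma adjusted p = 0.0925) and with only the compared groups fitted (0.0501).

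Heat-shock proteins and heat-shock factors are known for their response to heat. Of 31 listed genes 8 were paired and 3 tested, and 1 of 3 fell in the cold in both genotypes, while none of the 3 was called higher. Of all tested probe sets 16.4% fell in sfr3 and 13.3% in wild type. The gene that fell was AT4G21870, which had 3.03 and 10.4 in cold sfr3, against 123 and 154 in warm sfr3, and 12.6 and 8.72 in cold wild type, against 112 and 97.8 in warm wild type. It fell by 4.11 in sfr3 (limma adjusted p = 4.32e-04) and, in wild type, fell by 3.07 (limma adjusted p = 0.00195). On cold sfr3 replicate 1 its signal was under that array's background, so the size of the sfr3 difference rests on a value with only an upper bound, and without that array AT4G21870 fell by 3.47 in sfr3 (limma adjusted p = 5.37e-06). The other 2, AT1G54050 and AT5G37670, were not called, with 0.79 and 0.24 in sfr3 (0.48 and -0.57 without cold sfr3 replicate 1) and 0.56 and 0.12 in wild type. AT1G54050 and the dim, untested AT2G29500, ATHSP22.0 and AT5G51440 had both cold arrays above both warm arrays in each genotype. That was so for 33.3% of all tested probe sets in sfr3 and 36.8% in wild type, shares that cover no probe set as dim as the untested genes. AT5G51440 was above background on only 2 of the 8 arrays. Of the other untested genes, AT1G52560 was below background on every array, and AT1G53540 overlapped in both genotypes. No gene of the Hsp70, cochaperone, plastid chaperone and heat-shock lists was called between sfr3 and wild type at either temperature. None was called for the dependence of the cold response on genotype. At an unadjusted p below 0.05 there was 1, the cochaperone gene Hop2 in the cold (-0.60, limma adjusted p = 0.382). In the cold 1775 of all 13648 tested probe sets passed that threshold. With cold sfr3 replicate 2 left out, the array that stood apart is the lone cold sfr3 array. Calls then rose over all tested probe sets, so nothing is read from calls in that fit. The median difference of the Hsp70 genes in the cold was -0.42 with all arrays, -0.85 without replicate 2 and 0.16 without replicate 1. For cochaperones it was -0.03, -0.30 and 0.12. Plastid chaperones had -0.07, -0.21 and -0.05, and heat-shock genes -0.03, 0.79 and -0.01.

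**Figure D5:**
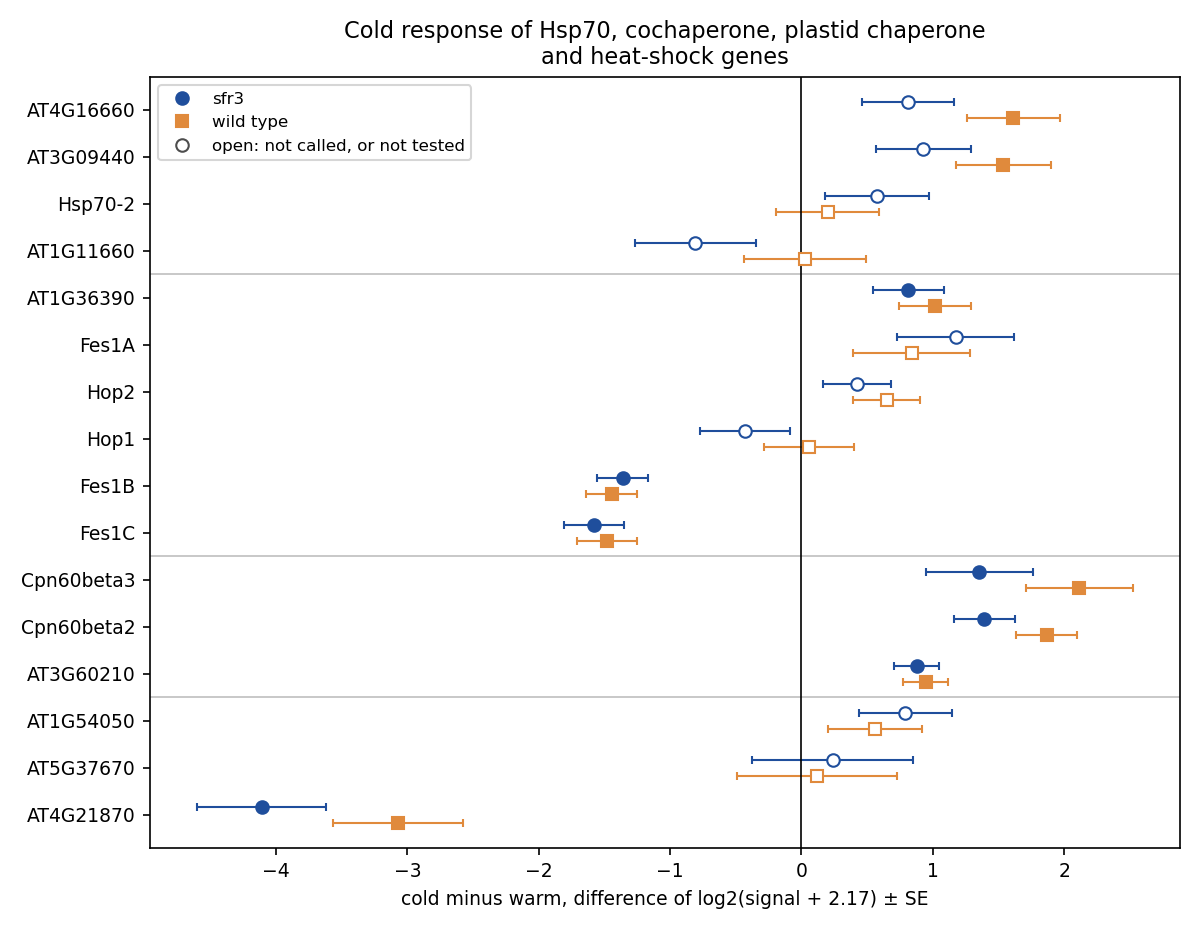
Cold minus warm difference of log2(signal + 2.17) with its SE for the tested Hsp70 genes, cochaperones, plastid chaperones and heat-shock genes (top to bottom, parted by grey lines), with circles for sfr3 and squares for wild type, filled where limma called the gene. Fes1B and Fes1C lie between -1.36 and -1.58, Cpn60beta2 and Cpn60beta3 between 1.36 and 2.12, and AT4G21870 below -3 in both genotypes.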

How the data were processed

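The authors deposited linear-scale intensity values; the submitters' processing notes name MAS5 and GCOS, without versions. Each array's 2% trimmed mean came to 100. The number of arrays limits the precision. The 64 control probe sets were left out. All 8 arrays were fitted with 1 mean per group in limma 3.58.1 (R 4.3.3) with an intensity trend (4 residual and 5.17 prior degrees of freedom), with Benjamini-Hochberg adjustment over 13648 probe sets (mean signal of at least 26.7), and the computation was tested on simulated data. Of 22746 probe sets 13513 were paired with 1 gene, through the platform annotation and the TAIR10.1 gene table. No listed gene had several probe sets. A gene was not above background where both arrays of a group were under the 95th percentile over 27 dark bacterial controls, and a bound sets the brighter group's geometric mean against that level. Members and lists were chosen with earlier results of these data known. Named were all members, the genes most like them, and called list genes by size (the 2 smallest p where none was called). Fits with the 18 alternatives are given at the end.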

Additional observations from a re-analysis of the deposited data

Results flagged for a closer look

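AT4G37480, one of the other J-domain genes, moved in opposite directions in the genotypes on every array. It had 61.2 and 46.8 in cold sfr3, against 35.3 and 46.1 in warm sfr3, and 33.6 and 32.7 in cold wild type, against 50.7 and 51.9 in warm wild type. With the wild-type response subtracted, the sfr3 response was 0.99 (SE 0.46, 95% interval -0.05 to 2.02), which limma did not call (adjusted p = 0.733, 0.0475 to 0.963 over the alternatives). It was called only without cold sfr3 replicate 2, which leaves the array that stood apart as the lone cold sfr3 array. Calls over all tested probe sets rose in that fit too. Without cold sfr3 replicate 1 the value for AT4G37480 was 0.80 (limma adjusted p = 0.572).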

How the results depend on the processing

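Of 18 alternatives, 8 left out 1 array each. For AT1G71000 and AT3G14200 the cold difference kept its sign in both genotypes under every alternative that kept the genes: it ran from 2.39 to 5.36 in sfr3 and 2.41 to 5.10 in wild type for AT1G71000, and from 1.22 to 1.77 in sfr3 and 1.04 to 1.62 in wild type for AT3G14200. Only AT1G56300 in sfr3 turned, to 0.21 against -0.18 with all arrays, without cold sfr3 replicate 1; it was -0.57 without cold sfr3 replicate 2. With the 40% brightest probe sets neither AT1G71000 nor AT3G14200 passed, so the genes with all cold arrays above all warm arrays were 0 in sfr3 and 1 in wild type. Without 1 array these counts were 2 to 3 in sfr3 and 3 to 3 in wild type. With all arrays kept, no alternative called any of the 3 genes between sfr3 and wild type or for the genotype dependence. Without cold sfr3 replicate 2 AT1G56300 differed by -0.55 in the cold and by -0.79 for the genotype dependence. Called other J-domain genes in sfr3 were 1 with array weights and 1 with only the compared groups fitted. In wild type they were 1 with median centring, 7 with array weights and 6 with only the compared groups. Over all 13648 tested probe sets the calls in sfr3 were 2236 with array weights and 1867 with only the compared groups, against 4261 as reported. In wild type they were 2623 with median centring, 6600 with array weights and 6551 with only the compared groups, against 3594 as reported. With all arrays 3 Hsp70 and cochaperone genes were called in sfr3 and 5 in wild type. Leaving out 1 array moved these counts both ways, as it did the counts over all tested probe sets. Median centring moved the median of all probe sets from 0.06 to -0.19 in sfr3 and the share of higher calls from 47.6% to 30.9%. With the replicate number as a block the counts of called genes were 2 other J-domain genes in each genotype, and no member was called. The deviations of same-numbered arrays correlated at -0.087 to 0.052, so no shift shared by same-numbered arrays was seen. Whether same-numbered samples were handled together cannot be told from this. Averaging several probe sets of a gene was not run, since no listed gene had several. Dim signals limit AT1G71000 in the warm and ATJ1 throughout.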
